A study of Mus musculus with 8 samples.

Results

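FAK, focal adhesion kinase, works at integrin adhesion sites together with a small set of kinases and adaptors, and the transcripts of these partners were followed in embryos with and without a FAK mutation. The set holds 10 genes whose proteins bind FAK or paxillin: Src, Fyn, Pxn, Bcar1, Crk, Crkl, Git1, Git2, Arhgef7 and Nedd9. They were taken for this binding and not for their levels. In the platform annotation 26 probe sets carry exactly 1 of these symbols and cover 9 of the 10 genes, out of 34945 such probe sets and 18193 genes in all. All 26 probe sets and all 9 genes passed the filter on dim values. Nedd9 is not listed in that annotation and was not analysed here.

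The series holds 8 Affymetrix arrays of total RNA from mouse embryos, 4 from FAK mutants and 4 from controls. Of these, 1 mutant and 1 control array came from cranial neural crest cells sorted for p75, each from a pool of 3 embryos whose head and thorax had been dissected at E11.5 (embryonic day). The other 6 arrays came from origins labelled LM, OFT and UM, with 1 mutant and 1 control array each. The series title gives the same stage for all arrays. What LM, OFT and UM stand for, the number of embryos behind these arrays, the FAK allele, the Cre driver if there was one, the strain and the genotype of the controls are not given in the sources used here. With 1 array per origin and genotype, origins were compared with their control and mutant arrays taken as replicates, and genotypes were compared over the 4 origins as pairs. The p-values therefore measure the spread between these arrays and not between replicate embryos of an origin.

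Integrins that bind matrix cluster FAK at the cell membrane, where FAK phosphorylates itself and so creates a docking site for the kinases Src and Fyn. The active kinase pair then phosphorylates the scaffolds paxillin (Pxn) and p130Cas (Bcar1), to which the adaptors Crk and Crkl bind and bring exchange factors for Rac and Rap. Paxillin also recruits the GIT proteins (Git1, Git2), which act on Arf GTPases and carry the exchange factor beta-PIX (Arhgef7) and with it PAK kinases. The pathway is known for its part in cell spreading and migration, and neural crest cells are a migratory population.

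Promoter sequences are shown for 3 members that differ in how they behaved between origins: Fyn and Git1, which were among the members with the largest difference, and Crk, whose brightest probe set did not pass the test. They are the 150 bases before an annotated start, on the + strand of GRCm38.p6, from the RefSeq promoter table, in which 9 of the 10 members matched with 14 starts and Pxn did not. Capitals mark the GC box, GGGCGG or its reverse complement CCGCCC, searched on both strands with overlapping matches allowed.
Fyn, chr10:39369649-39369798: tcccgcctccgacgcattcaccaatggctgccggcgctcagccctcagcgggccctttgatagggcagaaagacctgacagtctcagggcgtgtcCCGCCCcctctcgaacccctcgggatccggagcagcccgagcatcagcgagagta
Git1, first of 2 listed starts, chr11:77493138-77493287: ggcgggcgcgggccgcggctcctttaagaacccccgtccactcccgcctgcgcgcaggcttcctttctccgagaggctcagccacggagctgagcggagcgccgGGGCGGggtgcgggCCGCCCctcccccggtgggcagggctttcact
Crk, chr11:75679109-75679258: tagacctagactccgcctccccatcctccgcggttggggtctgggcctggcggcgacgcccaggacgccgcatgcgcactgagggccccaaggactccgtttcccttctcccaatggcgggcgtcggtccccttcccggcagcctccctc
The windows of Fyn and Git1 hold 1 and 2 GC boxes, and that of Crk holds 0. The windows of Src and Crkl, which were also higher in the sorted cells, hold 0 as well. Over the 9 members with an entry 6 had a GC box at 1 or more starts, and 10 of 14 starts had one, some in overlapping windows of the same gene, against 28.6% of the 32851 promoter windows of this length. The TATA box, searched as TATAAA or TTTATA, was in 0 of the 14 windows and in 7.57% of all. These matches are a description of letters, and no binding was measured.

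The array values are intensities on a linear scale, and tests used log2(intensity + 32), so that an intensity of 0 becomes 5 and differences of dim genes are understated. The label of the sorted cells was borne out by crest markers, although markers of other cell types were found there as well. Ngfr, which encodes p75, reached 1043 on the sorted control array and 1422 on the sorted mutant array, against 47.1 to 149 on the other 6 arrays, and Sox10, a transcription factor of crest and glia, had 1512 and 1620 against 25.3 to 57.5. The 6 crest markers with a probe set summed to 7510 and 9529 there and to 596.1 to 1484 elsewhere. Of the skeletal muscle markers, Myod1 read 162 and 287 on the sorted arrays and Myog 316 and 693, above the other 6 arrays. Of the same list, Myf5 was highest in LM and Actc1 in OFT. Ptk2, the FAK gene itself, is not listed in the annotation, so the mutation could not be checked on these arrays. The 2 p75-sorted arrays stood apart in the Gapdh control ratio (3' over 5' signal), at 2.82 and 4.91, against 0.700 to 0.986 elsewhere, while the ratio for Actb was 1.57 and 1.65 against 1.42 to 1.94. The Tfrc ratio was highest on the OFT control, at 7.43, against 1.70 to 3.05 on the other 7 arrays. The ratio for pyruvate carboxylase was 7.33 and 7.01 in the sorted control and mutant and 6.57 and 1.99 in LM. It was 5.22 and 3.45 in OFT and 2.30 and 2.60 in UM. Xist, the X-inactivation RNA, was at 21.0 in the p75-sorted control and at 2247 to 5032 elsewhere, and the Y-linked Eif2s3y at 6.20 in the OFT control and at 79.4 to 386 elsewhere. In the p75-sorted and OFT pairs, sex-linked transcripts thus differed between mutant and control, and there sex and genotype cannot be told apart.

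**Figure D1:**
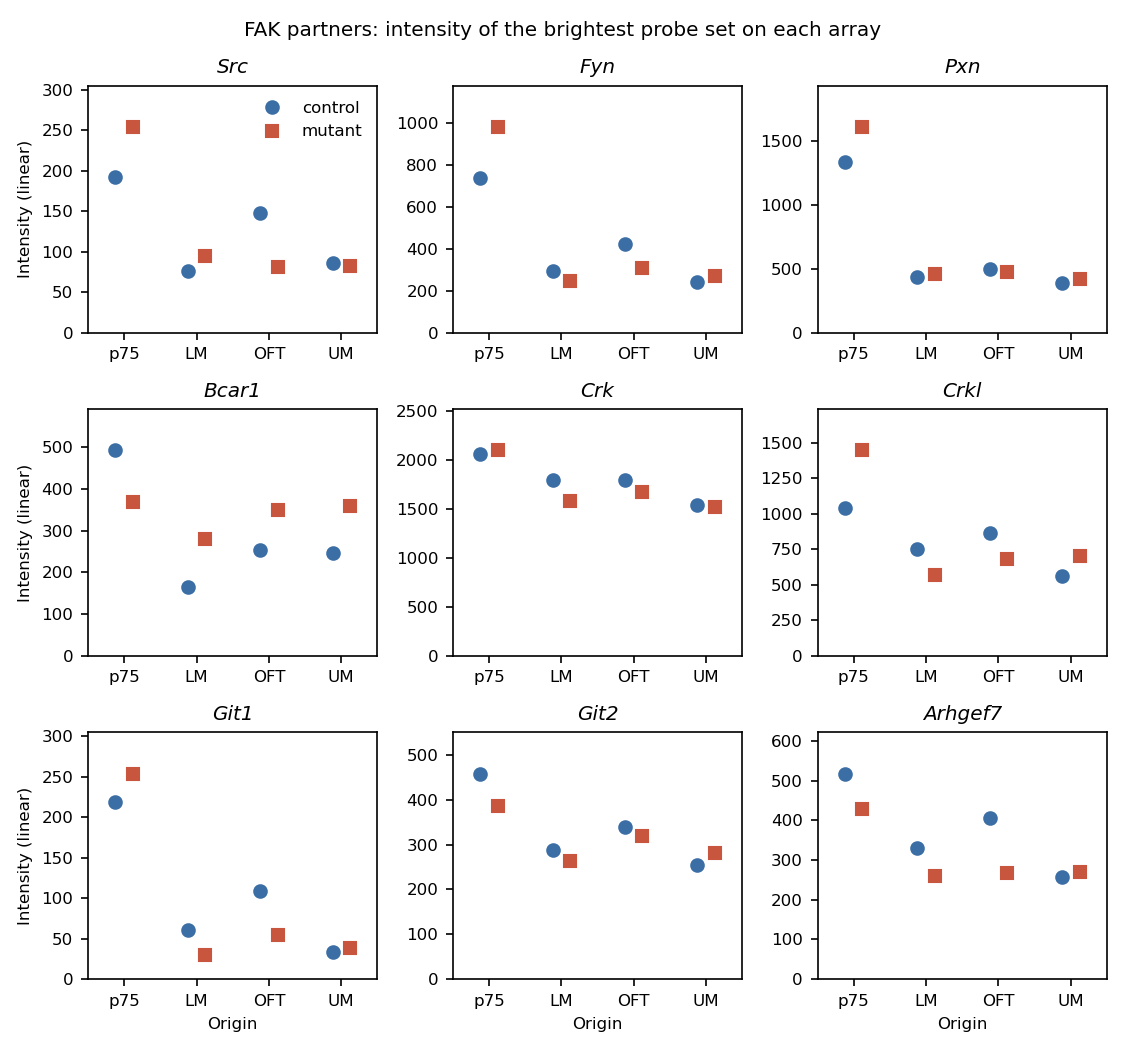
Intensity (linear axis from 0, arbitrary units) of the brightest probe set of each of the 9 measured FAK partners on the 8 arrays, by origin, with circles for controls and squares for mutants. For Pxn, Fyn and Git1 both p75-sorted arrays sit far above the other 6, while for Crk the 8 values lie between 1527 and 2102; levels cannot be compared between panels, since each is another probe set.

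The first comparison asked how p75-sorted crest cells differ from the unsorted LM and UM origins. All but 1 of the measured FAK partners were higher in the sorted cells: 8 of 9 rose, 0 fell, and Crk did not pass. Of all 13543 genes tested, 29.3% rose and 18.6% fell in this comparison by limma with Benjamini-Hochberg adjustment, so large differences were common here. The median difference of the 9 members was 0.90 on the log2 scale, against 0.09 over all genes. Sorting, pooling and the Gapdh ratio all go with the p75-sorted pair, as does the 18S ribosomal RNA control probe set, at 2042 and 5189 on the sorted arrays and 166 to 494 on the other 6. So do other markers: 8 neuron markers summed to 5868 and 3384 in the sorted cells and 601.9 to 1865 in LM and UM. The 7 facial mesenchyme markers summed to 3226 and 2898 against 7381 to 9183, and 7 skeletal muscle markers to 2197 and 3652 against 82.1 to 1490. The part of each in these differences was not tested. More cells of a type and more RNA per cell cannot be told apart in these samples.

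Of the kinases, Fyn, a Src family kinase prominent in neural tissue, stood at 740 on the sorted control array and 982 on the sorted mutant array. It lay at 297 and 249 in the LM control and mutant, 422 and 307 in OFT, and 241 and 269 in UM. The p75-sorted arrays were thus the highest, with no overlap with any other origin. Fyn rose by 1.58 ± 0.18 (log2 difference and its moderated SE, from 2 sorted arrays against 4), and limma gave an adjusted p = 3.2e-05. Src, the founding member of that family, was at 192 and 254 in the p75-sorted control and mutant, 76.8 and 94.7 in LM, 148 and 81.5 in OFT, and 85.6 and 81.9 in UM. Its sorted arrays were again the highest, with the OFT control next, and it rose by 1.12 ± 0.20 with adjusted p = 0.00070 by limma.

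Of the scaffolds, Pxn, which encodes paxillin and holds FAK, Crk and GIT proteins at adhesion sites, read 1336 for the p75-sorted control and 1608 for the mutant. The other 6 arrays ranged from 387 in the UM control to 499.5 in the OFT control. Pxn rose by 1.71 ± 0.15 with adjusted p = 4.8e-06 by limma, which was the smallest adjusted p of the members. Bcar1, the substrate scaffold p130Cas, varied more within origins. It was at 492 for the p75-sorted control and 369 for the mutant, 165 and 280 in LM, 252 and 349 in OFT, and 247 and 358 in UM, so the p75-sorted mutant lay only just above the UM mutant. It rose by 0.68 ± 0.20 with adjusted p = 0.015 by limma, a call that was lost without the p75-sorted control array, at 0.23 with adjusted p = 0.43, and at a pseudocount of 1, at 0.75 with adjusted p = 0.080. Without the p75-sorted mutant array it stood at 1.14 with adjusted p = 0.0046.

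The adaptors that bind the phosphorylated scaffolds differed from each other. Crkl, the Crk-like adaptor, was at 1038 for the p75-sorted control and 1447 for the mutant, 751 and 572 in LM, 864 and 680 in OFT, and 563 and 706 in UM. It rose by 0.90 ± 0.20 with adjusted p = 0.0026 by limma, and missed the threshold without the p75-sorted mutant array, at 0.60 with adjusted p = 0.11. Crk itself, at 2064 and 2102 in the sorted cells and 1527 to 1802 on the other 6 arrays, differed by 0.36 ± 0.15, with adjusted p = 0.060 by limma and a 95% interval of 0.04 to 0.69. The sorted arrays were above all others for Crk too, but by a small margin. Crk passed at a pseudocount of 64, with a stricter filter and with quantile normalization, with adjusted p between 0.027 and 0.042 by limma.

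Of the paxillin-bound GIT and PIX proteins, Git1 had the largest difference of all members. It read 219 for the p75-sorted control and 254 for the mutant, 60.7 and 29.7 in LM, 108 and 54.0 in OFT, and 33.8 and 38.8 in UM. Git1 rose by 1.90 ± 0.20 with adjusted p = 1.8e-05 by limma. The related Git2, which like Git1 acts on Arf GTPases, was at 458 and 387 in the sorted control and mutant and at 255 to 338 elsewhere, and rose by 0.58 ± 0.15 with adjusted p = 0.0080. Arhgef7, which encodes the exchange factor beta-PIX, was at 518 and 429 against 257 to 406, and rose by 0.70 ± 0.17 with adjusted p = 0.0040. For Arhgef7 the OFT control, at 406, came close to the p75-sorted mutant. Git2 missed the threshold without the p75-sorted control array, at 0.47 with adjusted p = 0.11 by limma, and Arhgef7 without the p75-sorted mutant array, at 0.69 with adjusted p = 0.055.

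**Figure D2:**
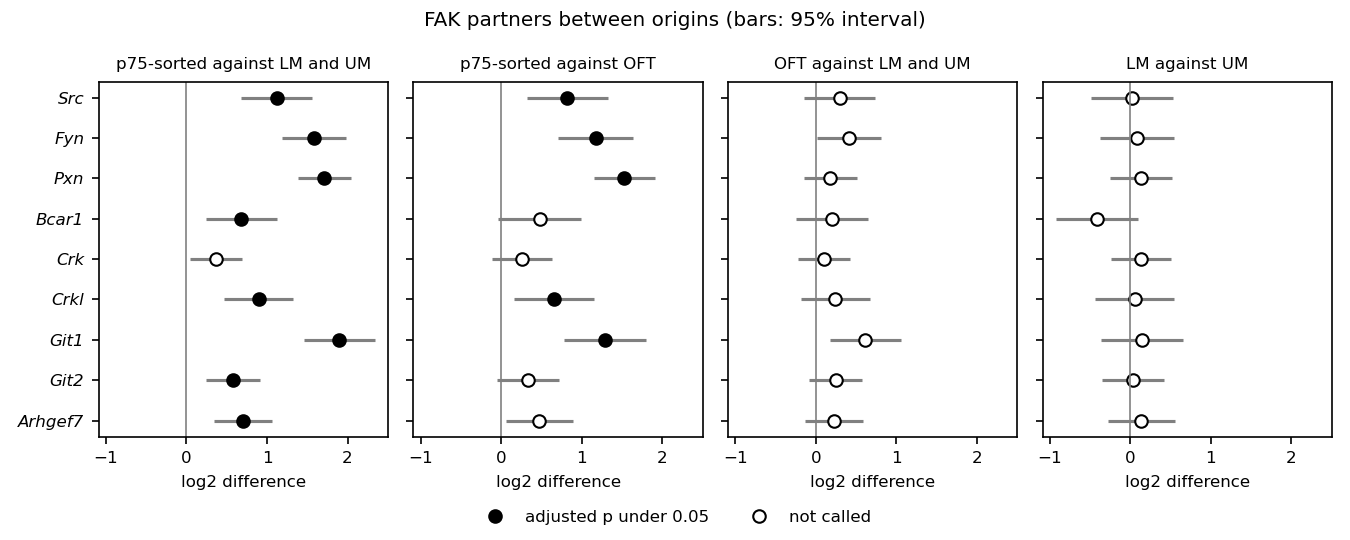
Log2 difference of the 9 FAK partners in 4 comparisons of origins, with bars for the 95% interval of limma's fit; filled points passed at an adjusted p under 0.05 over 13543 genes. All 9 lie above 0 wherever p75-sorted cells are compared with another origin, and no point is filled in OFT against LM and UM or in LM against UM.

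Several members have more than 1 probe set, and these did not always go the same way in the sorted cells. When all 25642 probe sets past the filter were tested and adjusted together, Crkl and Pxn had probe sets called in both directions, which is 2 of the 8 members with several probe sets. Among all 6733 genes with 2 or more such probe sets, 12.8% had probe sets called both ways. For Crkl, probe set 1436950_at, used above, and 1425604_at rose. The dim 1425604_at was at 31.5 and 37.3 in the sorted cells and 2.39 to 12.2 elsewhere. It passed the filter on dim values only through the sorted arrays, so its rise is no separate support. By contrast, 1421953_at was at 15.3 and 19.6 in the sorted control and mutant, 135 and 133 in LM, 28.0 and 81.0 in OFT, and 130 and 141 in UM. This is the reverse of the order seen with the brightest probe set: the sorted arrays were lowest, the OFT control next, and LM and UM highest. The probe set 1421953_at fell by 1.75 with an SE of 0.20 and adjusted p = 2.0e-05 by limma, and 1421954_at fell by 1.82 with an SE of 0.18 and adjusted p = 7.5e-06. Both passed the filter on dim values only through the unsorted arrays, so their falls are no separate support.

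Crk also had a probe set apart from its brightest one. Its probe set 1425855_a_at was at 40.2 and 43.5 in the sorted control and mutant, 221 and 237 in LM, 94.7 and 171 in OFT, and 228 and 279 in UM, and it fell by 1.88 with an SE of 0.17 and adjusted p = 4.4e-06 by limma. The other 3 dimmer Crk probe sets had differences of -0.26 to -0.05 and did not pass. For Pxn, 1424027_at rose by 1.66 ± 0.18, close to the brightest probe set, while 1426085_a_at, at 8.87 and 3.78 in the sorted cells and 19.6 to 48.5 elsewhere, fell by 0.95 with an SE of 0.18 and adjusted p = 0.00081. Src, Fyn, Bcar1 and Arhgef7 each have 2 probe sets, and both rose. The dimmer Arhgef7 probe set, 1424482_at, was at 56.5 and 72.7 in the sorted cells and 10.8 to 18.3 elsewhere. It passed the filter on dim values only through the sorted arrays, so its rise there is no separate support. In the same way, 1426085_a_at of Pxn passed only through unsorted arrays, so its fall is none either. Of the 5 Git2 probe sets 2 rose and 3 did not pass, with values of 0.12 to 0.24, and Git1 has only 1.

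The split also ran through OFT. In OFT against LM and UM the same probe sets of Crkl and Crk were lower, and they read 130 to 279 in LM and UM. The fall was 1.02 ± 0.20 for 1421953_at and 0.60 ± 0.18 for 1421954_at of Crkl and 0.77 ± 0.17 for 1425855_a_at of Crk. The adjusted p was 0.0048, 0.047 and 0.012 by limma. On these 3 probe sets the OFT control was below the OFT mutant, and the OFT control also had the highest Tfrc ratio of the 8 arrays. The places of these probe sets along their transcripts are not given in the sources used here, and the part of the Gapdh and Tfrc ratios was not tested. With each gene read as the mean over its probe sets, Crk and Crkl reversed in the sorted cells against LM and UM, to -0.38 with adjusted p = 0.019 and -0.47 with adjusted p = 0.010 by limma. The direction for these 2 adaptors is therefore that of the probe set read. Pxn kept its call in this reading with a smaller difference, 0.81 with adjusted p = 0.00032 by limma. Src, read from its other probe set, stood at 0.68 with adjusted p = 0.0037.

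**Figure D3:**
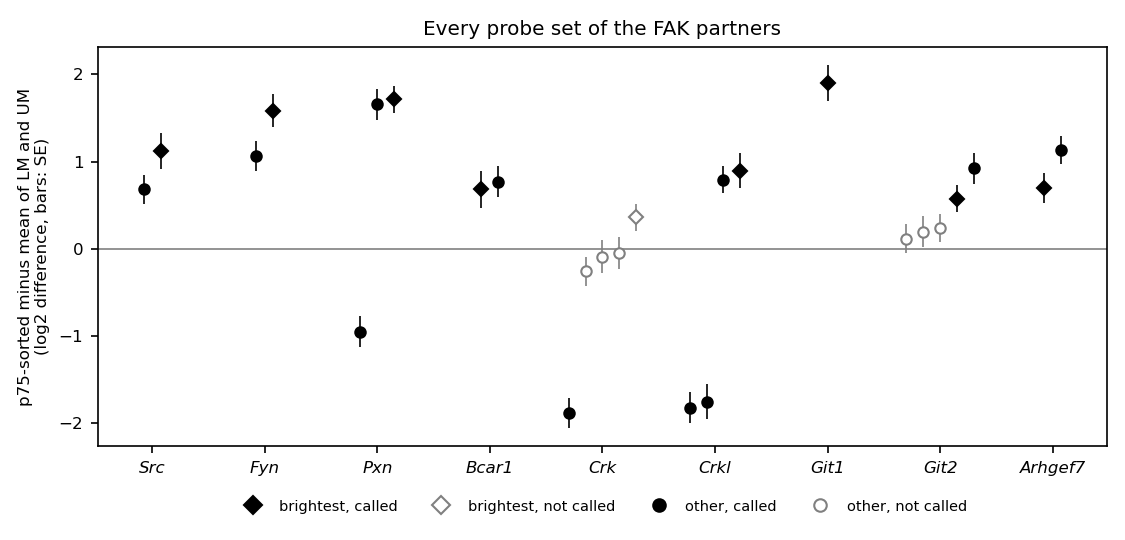
Log2 difference of p75-sorted cells from the mean of LM and UM for each of the 26 probe sets of the 9 members, with bars for the moderated SE; diamonds are the brightest probe set of a gene and filled symbols passed at an adjusted p under 0.05 over 25642 probe sets. Pxn, Crk and Crkl have 1, 1 and 2 filled symbols below 0, at -0.95 to -1.88, while every filled diamond is above 0.

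The second comparison set the sorted cells against OFT, the origin nearest to them for most members. Of the 9 members 5 rose, 0 fell and 4 did not pass, where 19.2% of all genes rose and 15.3% fell. Pxn rose by 1.53 ± 0.18, Git1 by 1.29 ± 0.23, Fyn by 1.17 ± 0.21, Src by 0.82 ± 0.23 and Crkl by 0.66 ± 0.23, with adjusted p between 5.8e-05 and 0.042 by limma. Bcar1, Arhgef7, Git2 and Crk differed by 0.48, 0.48, 0.33 and 0.26. The probe sets that fell against LM and UM went the other way here too, all called lower by limma. The Crkl probe sets 1421953_at and 1421954_at were at -0.74 and -1.22, 1425855_a_at of Crk at -1.12 and 1426085_a_at of Pxn at -0.68. Those of Crkl and Pxn passed the filter on dim values only through the unsorted arrays. As the mean over its probe sets Crkl stood at -0.14 with adjusted p = 0.46, and Pxn at 0.87 with adjusted p = 0.00092. Markers differed widely between these origins. Cardiac muscle markers summed to 562.7 and 814.1 in the sorted cells and 13660 and 15600 in OFT, smooth muscle markers to 2878 and 3522 against 10280 and 12540, and crest markers to 7510 and 9529 against 1484 and 1037. The part of these and of the control ratios was not tested. The calls of Src and Crkl changed with single arrays: without the OFT mutant they stood at 0.40 and 0.42 with adjusted p = 0.32 and 0.37, and without the p75-sorted mutant at 0.56 and 0.36 with adjusted p = 0.22 and 0.40. Without the OFT control Crkl also missed the threshold, at 0.89 with adjusted p = 0.05002, and Src rose by 1.25 with adjusted p = 0.0059. At a pseudocount of 1 Src stood at 0.999 and Crkl at 0.68, with adjusted p = 0.090 and 0.15. Src also missed the threshold when read from its other probe set, at 0.47 with adjusted p = 0.070, and Crkl when dim genes were kept, with adjusted p = 0.071. Some alternatives added Arhgef7. It passed by limma at a pseudocount of 64, with adjusted p = 0.047, and as the mean over its probe sets, at 0.72 with adjusted p = 0.0041. That mean includes 1424482_at, which passed the filter on dim values only through the sorted arrays. Without the p75-sorted mutant Bcar1 stood at 0.93.

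Between the unsorted origins no member passed by limma on its brightest probe set. In OFT against LM and UM, where 11.3% of all genes rose and 3.89% fell, all 9 members had values above 0 on these probe sets. Their median was 0.24, against 0.01 over all genes. Read as the mean over their probe sets, Pxn, Crk and Crkl stood below 0, at -0.06, -0.12 and -0.33. The probe sets of Crk and Crkl called lower here are given above. An unadjusted p under 0.05 by limma was found for 2 of the 9, beside 3868 of all 13543 genes. Git1 came nearest, at 0.61 ± 0.20 with adjusted p = 0.062, and Fyn followed at 0.41 ± 0.18 with adjusted p = 0.16. Without the LM control array Git1 passed, at 0.73 with adjusted p = 0.027, and without the UM mutant array likewise, at 0.73 with adjusted p = 0.039. On the brightest probe sets the OFT control was the highest of the 6 unsorted arrays for all measured members but Bcar1. Of these members, the OFT mutant lay within the range of LM and UM for Git1, Src, Arhgef7, Crk and Crkl. It lay above that range for Fyn, Pxn and Git2. The share of all genes whose highest unsorted value was on the OFT control was not counted. In LM against UM, where 0.738% of genes rose and 0.812% fell, 0 of 9 members had an unadjusted p under 0.05 by limma. Over all genes 1152 of 13543 did. The largest value there was that of Bcar1, at -0.41 ± 0.23 with adjusted p = 0.77. Read from high to low on the brightest probe sets, the order of origins by mean was p75-sorted, OFT, LM and UM for all measured members but Bcar1. For Bcar1 LM was lowest. Of the members with the largest differences in the sorted cells, Git1 had overlapping arrays of OFT, LM and UM, and Fyn of LM and UM. For the brightest Pxn probe set no array of one origin reached the next, although the steps below the sorted cells did not pass the test. On Pxn probe set 1424027_at these origins overlapped, at 120 and 136 in LM, 129 and 94.8 in OFT, and 102 and 131 in UM. The share of all genes with such an order was not counted.

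The third comparison, mutant against control over the 4 origins, asked whether the partners' transcripts change when FAK is mutated. No member did so by limma: 0 of 9 passed and 0 of 9 had an unadjusted p under 0.05, and over all genes 0% were called, with 412 of 13543 at an unadjusted p under 0.05. The median difference of the members was -0.04, against -0.01 over all genes. Bcar1 had the largest mean difference, 0.29 ± 0.17 (moderated SE, n = 4 pairs), followed by Arhgef7 at -0.26 ± 0.13 and Git1 at -0.25 ± 0.17, each with adjusted p = 0.9997. The 95% intervals of the 9 members together ran from -0.61 to 0.66, so these 4 pairs leave room for differences of that size.

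No member went the same way in all 4 pairs, where 5.24% of all genes were lower and 3.92% higher in 4 of 4. Bcar1, with the values given above, was higher in the mutant in LM, OFT and UM, by 0.66, 0.42 and 0.48, and lower in the sorted cells, by -0.39. Its second probe set, 1450622_at, went otherwise: it was at 168 in the sorted control and 149 in the mutant, 83.1 and 72.0 in LM, 150 and 92.4 in OFT, and 73.4 and 90.2 in UM. The 2 probe sets of Bcar1 thus agreed in direction in the sorted cells and in UM only. Arhgef7 was lower in 3 pairs, by -0.25 in the sorted cells, -0.31 in LM and -0.55 in OFT, and stood at 0.07 in UM; its dimmer probe set had a mean of 0.08.

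Within single origins there is 1 array per genotype and no test, and a difference of at least 1.5-fold was counted. In OFT the mutant was lower for 8 of 9 members on their brightest probe sets, with a median of -0.33 against -0.05 over all genes. The share of all genes lower in the OFT mutant was not counted. Git1 and Src were the 2 members at least 1.5-fold lower, at -0.71 and -0.67, where 2.53% of all genes were that much lower and 1.34% that much higher. Other values moved within the same pair. The summed intensity of 8 neuron markers was 5055 in the OFT control and 3322 in the mutant, of 6 crest markers 1484 and 1037, and of 8 macrophage and leukocyte markers 1127 and 782.5. All 8 neuron, all 8 macrophage and leukocyte and 5 of 6 crest markers were lower in the mutant, with the crest gene Foxd3, near background at 19.1 and 21.3, the exception. Their part in the members' lower values was not tested. The cardiac muscle markers went the other way, from 13660 to 15600.

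In LM, Bcar1 was 1 member at least 1.5-fold higher, at 0.66, and Git1 was 1 member that much lower, at -0.59, where 4.53% and 3.43% of genes lay beyond these limits. The median of the members in LM was -0.18, against -0.04 over all genes. The pyruvate carboxylase control ratio was 6.57 in the LM control and 1.99 in the LM mutant, and its part was not tested. In the sorted cells 0 members were beyond 1.5-fold in either direction, where 2.4% and 3.38% of genes were higher and lower, and the members' median was 0.19, against -0.02 over all genes. Crkl and Fyn had the largest values there, 0.47 and 0.39. In UM the count was also 0, where 2.51% and 2.08% of genes were higher and lower, with a median of 0.11, against 0.04 over all genes. The 4 pairs thus had medians on both sides of 0, below it in LM and OFT and above it in the sorted cells and UM, and the median of all genes had the same sign as theirs in LM, OFT and UM.

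**Figure D4:**
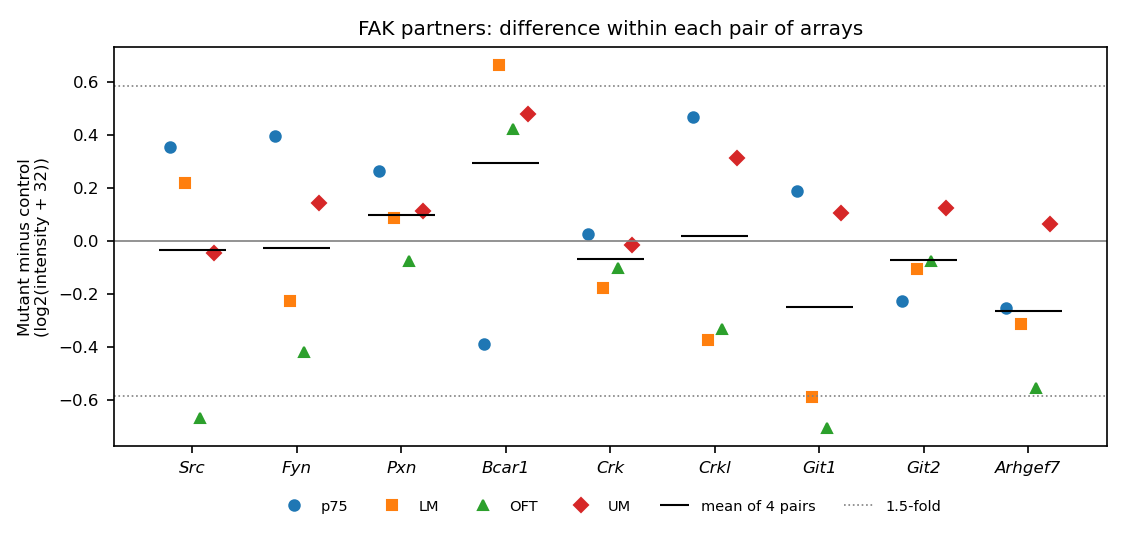
Mutant minus control difference of log2(intensity + 32) within each of the 4 origins for the 9 FAK partners, with a line for the mean of the 4 pairs and dotted lines at 1.5-fold. No gene has all 4 symbols on one side of 0, and the OFT values lie lowest for Src, Fyn, Pxn, Git1 and Arhgef7.

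Other genes of the pathway were read from 7 lists of kinases, phosphatases, adaptors and GTPase regulators, which hold 51 genes beside Ptk2, 41 of them tested. In the sorted cells against LM and UM 20 of the 41 rose and 5 fell, with a median of 0.41, where 29.3% of all genes rose and 18.6% fell. These shares of all genes are also the background of each list below. Of 8 Crk effectors and exchange factors 6 rose and 0 fell, led by Abl1, a tyrosine kinase that phosphorylates Crk, at 1.55 ± 0.17, Rapgef1, the Rap exchange factor carried by Crk, at 1.10 ± 0.18, and Elmo2, a partner of the Rac activator DOCK1, at 1.10 ± 0.16. Of 8 Src regulators 5 rose and 0 fell, among them Ptpn1, a tyrosine phosphatase, at 1.23 ± 0.16 and Csk, the kinase that holds Src inactive, at 1.11 ± 0.17, and Pag1, the membrane anchor of Csk, at 0.92 ± 0.15.

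Among 4 tested relatives of paxillin and Cas, 2 rose in the sorted cells: Tgfb1i1, the paxillin relative Hic-5, by 1.71 ± 0.17 and Bcar3, a Cas-binding adaptor, by 1.59 ± 0.17. Of 9 GIT and PIX effectors 3 rose and 1 fell, near the shares of all genes and with a list median of -0.01. Those that rose were the kinase genes Pak3 at 1.15 ± 0.19 and Pak2 at 1.02 ± 0.18 and the PIX gene Arhgef6 at 0.65 ± 0.15. The gene that fell was the adaptor Nck1, at -0.59 ± 0.15. Nck1 was named after its values were seen. Of 3 other Src family kinases 0 rose and 1 fell, Frk, a kinase of epithelial cells, at -0.85 ± 0.19. Frk read 45.5 and 30.7 in the sorted control and mutant and 49.4 to 131 elsewhere, with 49.4 in the LM control. The summed surface epithelium markers were at 446 to 506.3 in the sorted cells and 1380 to 2491 elsewhere, and their part in the fall of Frk was not tested. Ptk2b, the FAK paralog, did not pass the filter on dim values.

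Against OFT, 13 of the 41 pathway genes rose in the sorted cells and 6 fell, where 19.2% of all genes rose and 15.3% fell. The called values had Bcar3 at 1.62 ± 0.20, the Rac exchange factor Dock5 at 1.25 ± 0.17 and Abl1 at 1.21 ± 0.20 highest and Frk at -1.08 ± 0.21 lowest. In OFT against LM and UM 3 of the 41 rose and 0 fell, where 11.3% of all genes rose and 3.89% fell. They were Tgfb1i1 by 1.85 ± 0.17, Pag1 by 1.32 ± 0.15, and Arhgef6, the paralog of Arhgef7, by 1.14 ± 0.15. The paralogs of PIX thus parted in OFT by call, Arhgef6 passing and Arhgef7 standing at 0.22 ± 0.17, a difference between genes that was not itself tested. Pag1 also rose in LM against UM, by 0.82 ± 0.17, the only call of the 41 in that comparison, where 0.738% of all genes rose. Between mutant and control 0 of the 41 passed by limma, with a median of -0.05.

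The closest group by function are the proteins that link integrins to actin, of which 19 of 21 listed genes were tested. In OFT against LM and UM 11 of the 19 rose and 0 fell, where 11.3% of all genes rose, beside 0 of the 9 FAK partners, with medians of 0.63 and 0.24. Zyx, which encodes zyxin, rose by 1.22 ± 0.16 there, Vcl, which encodes vinculin, by 1.10 ± 0.15, and Tln1, which encodes talin, by 0.98 ± 0.17. Summed smooth muscle markers were at 10280 and 12540 on the OFT arrays and 510.2 to 1409 in LM and UM, and cardiac muscle markers at 13660 and 15600 against 47.1 to 299, and the part of these in the linkers' rise was not tested. In the sorted cells against LM and UM the lists were nearer each other. There 13 of 19 linkers rose and 1 fell, and 8 of 9 partners rose and 0 fell, where 29.3% of all genes rose and 18.6% fell. Against OFT 2 linkers rose and 1 fell, beside 5 partners higher and 0 lower, where 19.2% of all genes rose and 15.3% fell. The difference between the lists was not tested.

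**Figure D5:**
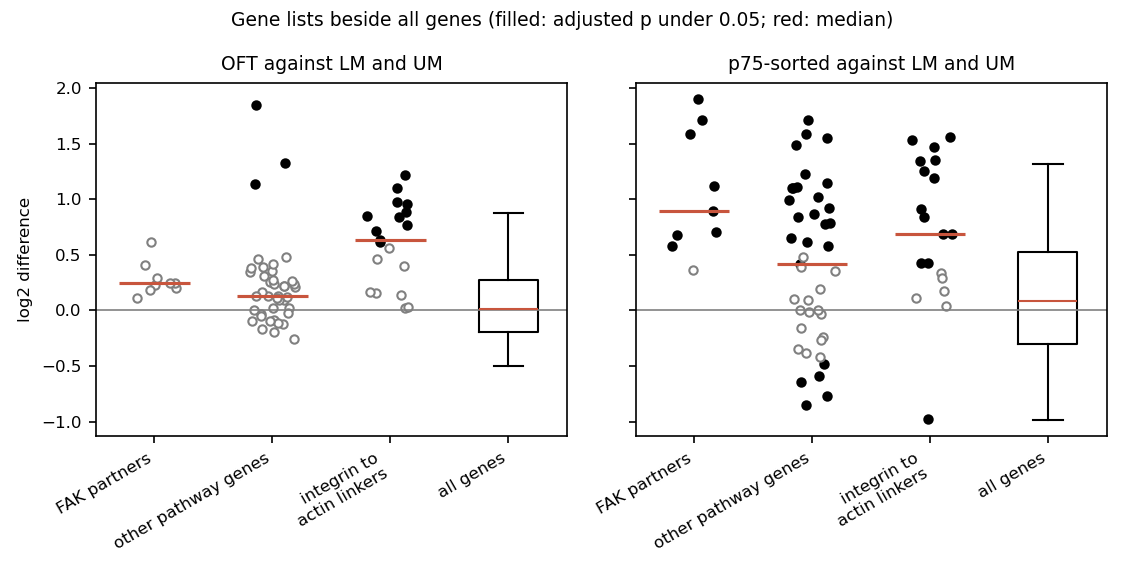
Log2 differences of the 9 FAK partners, 41 other pathway genes and 19 integrin to actin linkers in 2 comparisons of origins, with a box for all 13543 genes (middle line, median; whiskers, 5th to 95th percentile). Filled points passed at an adjusted p under 0.05 and red lines are medians: in OFT against LM and UM no partner is filled while 11 linkers are, and in p75-sorted cells 8 partners and 13 linkers are filled above 0.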

How the data were processed

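Intensities of 45101 probe sets on 8 arrays were used as deposited by the authors. The tools that made them are not given in the sources used here; all 8 arrays share nearly 1 trimmed mean (149.951 to 149.957), so each had been scaled, and no further scaling was applied. By the platform annotation 34945 probe sets had 1 gene, 932 several (left out) and 9160 none; 64 were control probe sets. A gene was read from its brightest probe set and kept when at least 2 arrays exceeded an intensity of 19.4, which is percentile 40 over the whole table. Values were compared as log2(intensity + 32) with limma 3.58.1 in R 4.3.3 (lmFit, eBayes). A single model held origin and genotype, with 3 residual and 9.18 prior degrees of freedom. Benjamini-Hochberg adjustment ran over all genes, with a threshold of 0.05. The fit was checked on simulated data. Members, lists and tests were chosen with earlier results of these data known; all members are described, and of each list up to 3 genes with the largest called difference in a comparison. Alternatives covered the pseudocount, filter, scaling, variance trend, probe set choice, model terms and single arrays left out. The number of arrays limits the precision. The genes of 1 pathway list enter the counts over all lists and are not reported here by name.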

Additional observations from a re-analysis of the deposited data

How the results depend on the processing

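Of 792 member values recomputed under the alternatives, 767 kept their call, 14 lost it, 8 gained one and 3 reversed, and 30 changed sign. Most of the 767 were values not called in the main fit that stayed so. The main fit called only 8 members in the sorted cells against LM and UM and 5 against OFT, and all losses fell among these. The reversals came when genes were read as the mean over their probe sets: Crk to -0.38 and Crkl to -0.47 in p75-sorted cells against LM and UM, where 2 members were then called lower, and Crkl to -0.14 with adjusted p = 0.46 by limma against OFT. With single arrays left out, 6 to 8 members were higher in the sorted cells against LM and UM, 3 to 5 against OFT, and 0 to 1 in OFT against LM and UM; the remaining array of that origin is then assumed to vary like the others. A pseudocount of 1 left 3 members higher against OFT. The labels give no replicate numbers, and the origin term is the pairing of the genotype comparison; without it 0 members passed.

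Over all genes the main counts were 2060 for OFT against LM and UM, 210 for LM against UM, and 6481 and 4665 for the sorted cells against LM and UM and against OFT. At a pseudocount of 1, OFT against LM and UM gave 1012 genes, LM against UM 64 and the sorted cells against OFT 2790. With every probe set tested the counts are of probe sets: OFT gave 3480, the sorted cells against LM and UM 12254 and against OFT 8653, which are 13.6%, 47.8% and 33.7% of 25642, close to the 15.2%, 47.9% and 34.4% of genes. With single arrays left out, OFT against LM and UM ranged from 631 (without the OFT control) to 2154, LM against UM from 111 (without the UM control) to 227, the sorted cells against LM and UM from 3636 (without the p75-sorted mutant) to 6256 and against OFT from 1836 (without the OFT mutant) to 5008. Mutant against control ranged from 0 to 1, the latter without the LM pair.

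Within pairs, a pseudocount of 64 left 0 members at least 1.5-fold lower in LM and in OFT, and the mean over probe sets left 1 lower in OFT and 0 higher in LM. Leaving out both p75-sorted arrays, chosen after seeing the data, left 0 members called between the unsorted origins. The single array per origin and genotype limits every comparison.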
